A study of Oryza sativa Indica Group and Oryza sativa Japonica Group with 20 samples.

Results

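The regions described here are the called H3K27me3 and H3K4me3 peaks that start in the proximal stretches of rice chromosomes 4 (2 to 14 Mb) and 10 (2 to 7 Mb), in male meiocytes of wild-type IR64 (indica, per the labels) and Azucena (japonica, per the labels). A peak belongs to them by its position, in each cultivar's own coordinates, while the windows themselves were set with earlier results of these data known. They numbered 4884 of the 187445 peaks of 8 lists (2.61%). Of these, 2993 lay on chromosome 4 (1084 of H3K27me3 and 1909 of H3K4me3) and 1891 on chromosome 10 (750 of H3K27me3 and 1141 of H3K4me3). The marks were read by CUT&Tag, in which an antibody directs a tagging transposase to chromatin, with 2 libraries per mark and cultivar, on male meiocytes collected with glass capillaries at meiotic prophase I. Each window was set against the rest of the same chromosome in the same library, from 20 Mb onward on chromosome 4 and from 13 Mb onward on chromosome 10, which held 16988 peaks. The series also lists bisulfite libraries and IR64 flag-leaf CUT&Tag samples, which were not analysed here.

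H3K4me3 marks the promoters of genes that are transcribed or ready for transcription, and in Arabidopsis meiotic crossovers tend to fall near promoters that carry it. H3K27me3 is deposited by Polycomb repressive complex 2 and covers silenced developmental genes. In rice, the short arms of chromosomes 4 and 10 are known from cytology as largely heterochromatic, rich in transposons and poor in genes, whereas the distal long arms are gene-rich. No heterochromatin mark, transposon or gene was measured in the lists used here, so the stretches are called proximal windows. Both chromosomes reach far beyond them: the last called base lay at 35.6 Mb (IR64) and 34.2 Mb (Azucena) on chromosome 4 and at 25.8 Mb and 25.1 Mb on chromosome 10.

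One library stood apart in depth. The first IR64 H3K27me3 library had 47.91 uniquely aligned reads in units of 1000000 in the authors' table, whereas the other 7 had between 9 and 13.71. The read coverage at peak summits, recovered as explained below, was low in both IR64 H3K27me3 libraries. Its genome-wide median was 24 and 23 reads there, against 39 to 52 in the other libraries. Whether replicates came from separate plants is not given in the sources used here, so the p-values speak only to variation among these libraries, possibly technical, and libraries of 1 cultivar share 1 genome. With 4 libraries of a mark, the two-sided exact sign-flip permutation test cannot go below p = 0.125, so no single mark could pass 0.05. Such results are given with the number of libraries in each direction.

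On chromosome 4 both marks were thinly called in the window. H3K4me3 peaks numbered 39.4 and 39.3 per Mb in the window of the IR64 libraries, against 126 and 123 per Mb in the rest of the chromosome. In Azucena there were 39.2 and 41.3 H3K4me3 peaks per Mb in the window, against 112 and 116 in the rest. The 4 libraries of both cultivars thus lay within 39.2 to 41.3 per Mb in the window, and none approached the level of the rest. H3K27me3 peaks numbered 24.3 and 15.7 per Mb in the window in IR64, against 39.6 and 33.8 in the rest. In Azucena they numbered 25.0 and 25.4 per Mb in the window, against 61.4 and 61.7 in the rest. The mean window density was 0.333 of that of the rest for H3K4me3 and 0.467 for H3K27me3, lower in 4 of 4 libraries for each mark (exact p = 0.125, the smallest possible, adjusted p = 0.214 over 24 comparisons).

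Chromosome 10 differed between the marks. H3K4me3 again had fewer peaks in the window, with 63.8 and 62.2 per Mb in IR64 windows, against 103 and 104 in the rest, and 50.6 and 51.6 per Mb in Azucena windows, against 91.6 and 93.0 in the rest. H3K27me3 density was close in the 2 stretches: 34.8 and 27.6 per Mb in IR64 windows, against 34.7 and 29.4 in the rest, and 44.4 and 43.2 per Mb in Azucena windows, against 51.4 and 52.5 in the rest. The window held 0.581 of the H3K4me3 density of the rest (lower in 4 of 4, exact p = 0.125) and 0.904 of the H3K27me3 density (lower in 3 of 4, exact p = 0.25, adjusted p = 0.353).

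**Figure D1:**
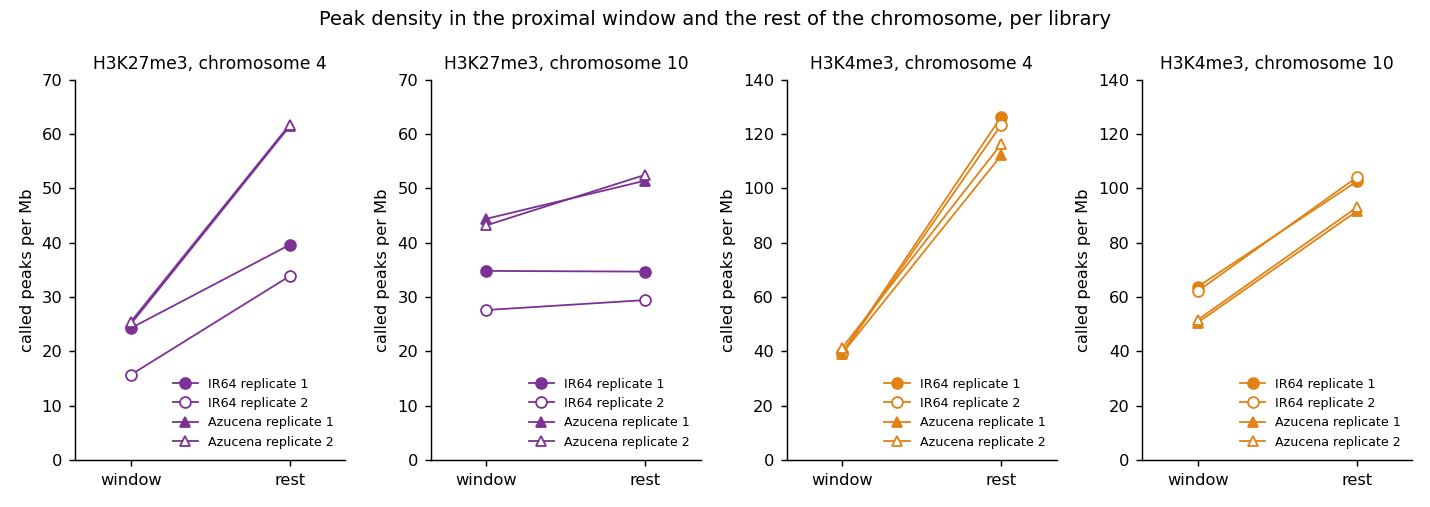
Called peaks per Mb in the proximal window and in the rest of the chromosome, with 1 line per library and 1 panel per mark and chromosome. H3K4me3 lines rise steeply to the rest on chromosome 4, where the 4 windows lie between 39.2 and 41.3 peaks per Mb, while H3K27me3 lines on chromosome 10 are nearly flat in IR64.

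Over all 8 libraries, peak density in the window was 0.394 of that of the rest on chromosome 4, lower in 8 of 8 libraries (two-sided exact sign-flip permutation test, p = 0.00781, adjusted over 2 chromosomes p = 0.0156). On chromosome 10 it was 0.725 of that of the rest, lower in 7 of 8 (exact p = 0.0156, adjusted p = 0.0156). That value pools 0.581 for H3K4me3 with 0.904 for H3K27me3. The windows were set with earlier results of these data known, so these p-values describe the libraries and are no independent test of depletion. The 8 libraries are also not 8 independent units, since they share 2 genomes. The chromosome 10 result did not hold under 3 of the alternatives: against everything outside the window, against the other 10 chromosomes, and with peaks of fold 4 or more only, where the window had 0.969 of the density of the rest (exact p = 0.242).

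The depletion was not uniform along the windows. In bins of 1 Mb, the chromosome 4 window held 18.5 to 58.0 H3K4me3 peaks per bin in IR64 (mean of both replicates, median 39.0 over 12 bins) and 18.0 to 58.5 in Azucena (median 37.3). The bins of the rest held 102 to 149 in IR64 and 81.5 to 132 in Azucena, so the window and the rest did not overlap in either cultivar. Genome-wide, the median bin held 89.5 H3K4me3 peaks in IR64 and 80.5 in Azucena. The IR64 chromosome 4 bin with fewest H3K4me3 peaks began at 10 Mb (18.5) and that with most at 11 Mb (58.0). In Azucena the bin beginning at 3 Mb held fewest (18.0) and that beginning at 6 Mb held most (58.5). For H3K27me3 on chromosome 4, the bin beginning at 8 Mb had the fewest in both cultivars, with 9.0 in IR64 and 6.0 in Azucena, although the coordinates of the 2 assemblies are not equivalent. The fullest H3K27me3 bins there began at 2 Mb in IR64 (34.0) and at 4 Mb in Azucena (48.0).

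Of the 12 window bins of chromosome 4, 8 in IR64 and 7 in Azucena fell in the lowest 20% of H3K4me3 bins of the genome (called bins made up 20.4% of all bins in IR64 and 20% in Azucena). None of the 15 IR64 and 14 Azucena bins of the rest did. For H3K27me3 the counts were 5 of 12 in IR64 and 9 of 12 in Azucena, with 20.1% and 20.3% of all bins called. In the rest of chromosome 4 they were 2 of 15 in IR64 and 0 of 14 in Azucena. On chromosome 10 the window was not the sparsest stretch. Its H3K4me3 bins numbered 1 of 5 among the lowest in IR64 and 3 of 5 in Azucena. The stretch between the window and 13 Mb, which belonged to neither side of the comparison, had 6 of 6 and 5 of 6. H3K4me3 counts in the chromosome 10 window ranged between 38 and 94.0 per bin in IR64 and between 31.5 and 73.0 in Azucena, with the fullest bin beginning at 2 Mb and the emptiest at 5 Mb in both. H3K27me3 in that window was fullest in the bin beginning at 3 Mb, with 52.5 peaks in IR64 and 62.0 in Azucena, and emptiest at 5 Mb, with 19.0 and 24.5.

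**Figure D2:**
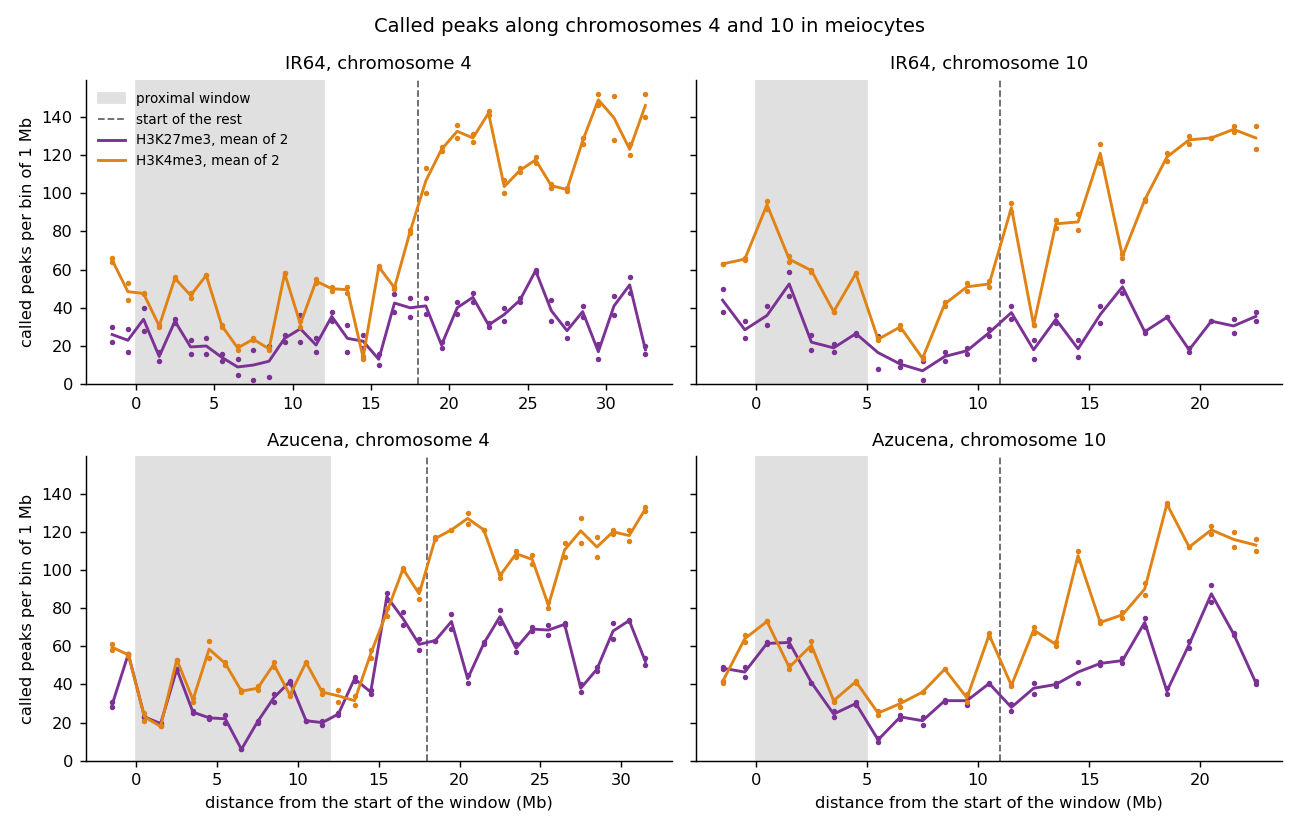
Called peaks per bin of 1 Mb plotted against the distance from the start of the window in Mb, with points for the libraries and lines for the mean of 2. Grey shading marks the window and the dashed line the start of the rest. On chromosome 4 the H3K4me3 mean stays at or below 58.5 peaks per bin throughout the window, while on chromosome 10 the lowest IR64 bin, with 13.5 H3K4me3 peaks, lies beyond the window.

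Because H3K4me3 was depleted more than H3K27me3, the balance of called peaks leaned further to H3K27me3 in the windows. On chromosome 4 there were 50.7 H3K27me3 peaks per 100 H3K4me3 peaks in the IR64 window, against 29.4 in the rest, and 62.7 in the Azucena window, against 53.9 in the rest. On chromosome 10 there were 49.5 in the IR64 window, against 31.0 in the rest, and 85.7 in the Azucena window, against 56.3 in the rest. Genome-wide the number was 33.3 in IR64 and 56.9 in Azucena. The lean was not particular to the windows. By bin medians, chromosome 4 had 46.6 in the IR64 window and 60.5 in the Azucena window. The stretch from there to 20 Mb had 60.5 and 73.1, and the stretch before the window 43.7 and 75.2. On chromosome 10 the medians were 45.7 and 77.8 in the window, and 56.7 and 94.8 before it. Between that window and 13 Mb they were 43.2 and 63.5. The IR64 chromosome 4 window gave 61.7 with the deep first H3K27me3 library and 39.8 with the second, against 31.7 and 27.1 in the rest, so it was above the rest with either. The density ratio of H3K27me3 over that of H3K4me3 was 1.40 on chromosome 4 and 1.56 on chromosome 10 (mark labels permuted within cultivar, exact p = 0.0556 each, adjusted p = 0.0556, the smallest the 36 relabellings allow). Without the deep library the chromosome 4 difference was 0.39 on the log2 scale, against 0.49 with it.

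Among peaks of high fold enrichment the lean to H3K27me3 was smaller or gone. Fold enrichment is the authors' own value for each peak, the read coverage at its summit over the local background. Among peaks of fold 4 or more, the density ratio of H3K27me3 over that of H3K4me3 was 0.994 on chromosome 4 (exact p = 0.944) and 1.06 on chromosome 10 (exact p = 0.389). In that subset the chromosome 4 window held 65.8 H3K27me3 peaks per 100 H3K4me3 peaks in IR64, against 62.3 in the rest, and 57.5 in Azucena, against 60.4 in the rest. The chromosome 10 window held 56.0 in IR64, against 56.9 in the rest, and 64.2 in Azucena, against 55.5 in the rest. The H3K4me3 density of the window was 0.655 of that of the rest on chromosome 4 and 0.940 on chromosome 10 in the same subset. A threshold on the recovered summit coverage (explained next) gave the other picture: among peaks with at least the median coverage of their library, H3K4me3 density in the window was 0.227 of that of the rest on chromosome 4 and 0.533 on chromosome 10. The ratio of H3K27me3 over H3K4me3 was then 1.54 and 1.8 (exact p = 0.0556 each). This second threshold was chosen after the data were seen.

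Fold and coverage ran in opposite directions for H3K4me3. The median H3K4me3 fold in the chromosome 4 window was 4.14 and 3.87 in IR64, against 3.30 and 3.15 in the rest, and 4.06 and 3.97 in Azucena, against 3.43 and 3.37 in the rest. That is 1.21 times the rest, higher in 4 of 4 libraries (exact p = 0.125, adjusted p = 0.214). The reads behind those folds can be recovered, since a peak's fold and p together fix its summit coverage and its local background. The median summit coverage of H3K4me3 peaks in that window was 42 and 35 reads in IR64, against 48 and 41 in the rest, and 35 and 35 in Azucena, against 41 and 42 in the rest. The median local background was 8.13 and 7.43 reads in IR64 windows, against 13.2 and 12 in the rest, and 6.68 and 6.82 in Azucena windows, against 10.9 and 11.3 in the rest. Window peaks were therefore called on 0.854 times the coverage of the rest and over 0.615 times its background, both lower in 4 of 4 (exact p = 0.125 each).

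Chromosome 10 showed the same order for H3K4me3. Its median fold in the window was 3.98 and 3.75 in IR64, against 3.45 and 3.27 in the rest, and 4.26 and 4.09 in Azucena, against 3.58 and 3.50 in the rest, or 1.16 times the rest (higher in 4 of 4, exact p = 0.125). Coverage was 0.962 times and local background 0.741 times that of the rest. Between 45.0% and 48.7% of the H3K4me3 peaks of the chromosome 4 window lay at the lowest background of their library, against 8.30% to 9.88% in the rest. On chromosome 10 it was 37.9% to 42.6% in the window, against 16.7% to 17.2% in the rest. Genome-wide it was 19.2% to 20.9% of the H3K4me3 peaks of a library. What part of the density and ratio differences comes from calling against this lower background was not tested.

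**Figure D3:**
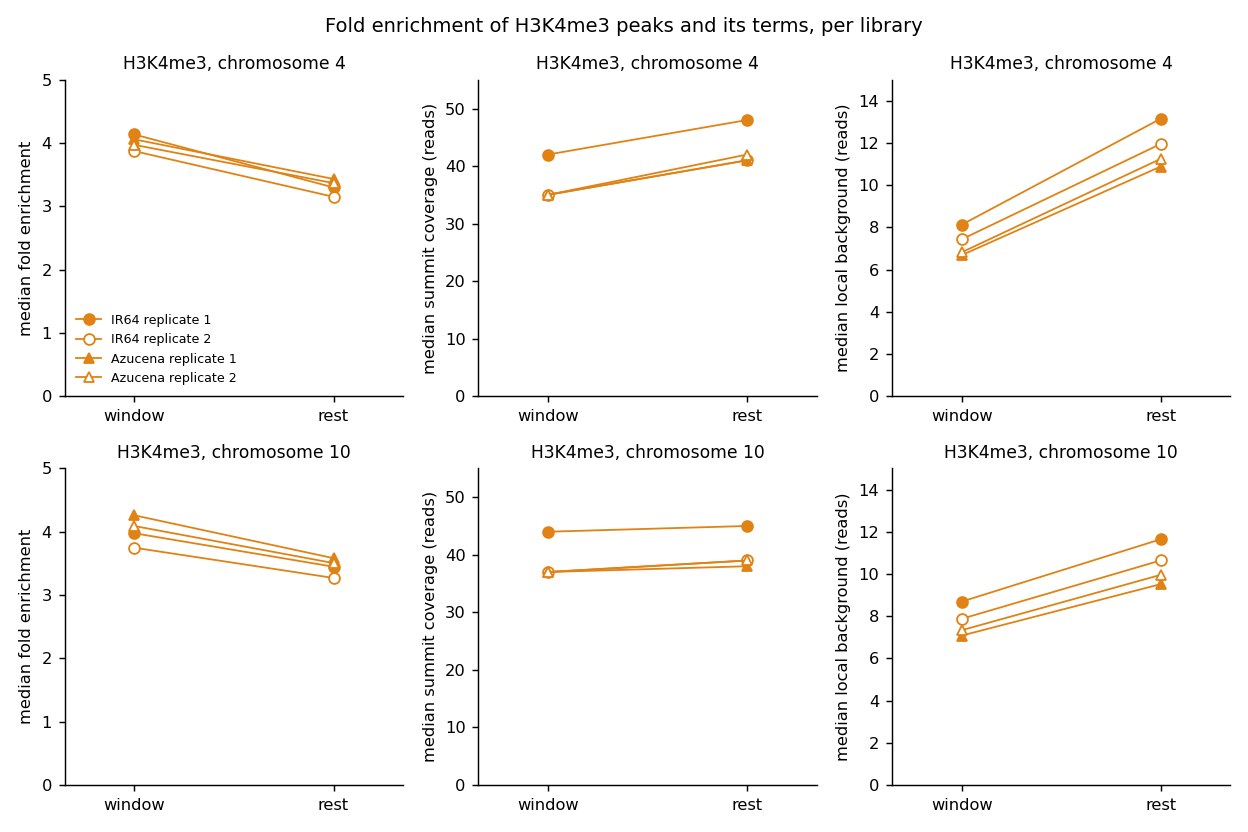
Median fold enrichment of H3K4me3 peaks and the 2 terms recovered from it, summit coverage and local background in reads, in the window and the rest of each chromosome, with 1 line per library. Fold falls toward the rest in all panels of the left column, while coverage and background climb, the background by the larger factor though not by more reads on chromosome 4.

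H3K27me3 folds moved less. On chromosome 4 the median was 4.37 and 4.53 in IR64 windows, against 3.84 and 4.08 in the rest, and 3.83 and 3.91 in Azucena windows, against 3.35 and 3.44 in the rest (1.13 times, higher in 4 of 4, exact p = 0.125). Coverage was 0.789 times and background 0.641 times that of the rest, both lower in 4 of 4. On chromosome 10 the H3K27me3 fold was 1.04 times that of the rest (higher in 3 of 4, exact p = 0.25), with coverage at 1.05 times and background at 1.01 times.

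H3K4me3-poor bins of the other 10 chromosomes served as a second yardstick, chosen after the data were seen. They were the 57 IR64 bins with at most 53 H3K4me3 peaks and the 56 Azucena bins with at most 49.4. The IR64 bins came from all 10 of these chromosomes and the Azucena bins from 9. The chromosome 4 windows, whose H3K4me3 density was 39.3 (IR64) and 40.2 (Azucena) peaks per Mb, were close to these bins, with 36.5 (IR64) and 35.5 (Azucena). The chromosome 10 windows, with 63.0 (IR64) and 51.1 (Azucena), exceeded the limits of the bins and so were not matched to them. The chromosome 4 windows, with 50.7 H3K27me3 peaks per 100 H3K4me3 peaks in IR64 and 62.7 in Azucena, lay close to these sparse bins, which held 51.3 in IR64 and 61.9 in Azucena. The Azucena chromosome 10 window, at 85.7, lay above its sparse bins. The IR64 chromosome 10 window went both ways, with 55.2 against 64.0 in the sparse bins by the deep H3K27me3 library and 43.8 against 38.7 by the second. The H3K4me3 fold was slightly lower in the windows than in the sparse bins, at 0.964 times on chromosome 4 (lower in 4 of 4, exact p = 0.125) and 0.965 times on chromosome 10 (higher in 0 of 4, level in the first Azucena library, exact p = 0.25). Of the H3K4me3 peaks in the sparse bins, 44.1% to 48.2% lay at the lowest background of their library. Calling over such low backgrounds was thus not particular to the chromosome 4 windows. The H3K27me3 density was 1.11 times that of the sparse bins in the chromosome 4 window and 1.85 times in the chromosome 10 window, higher in 4 of 4 libraries for each (exact p = 0.125). H3K4me3 density was not tested, since it defined the sparse bins. H3K4me3 counts are also the denominator of the ratio of marks, so the ratio in the sparse bins was in part set by their selection.

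H3K4me3 peaks coincided with H3K27me3 more often in the windows. A reproducible region was a merged stretch holding a peak of each replicate of a cultivar, and a peak was counted when it shared at least 1 bp with such a region of the other mark. On chromosome 4, 18.2% and 18.7% of the window's H3K4me3 peaks overlapped H3K27me3 in IR64, against 10.4% and 9.91% in the rest, where 12.2% and 11.9% of all H3K4me3 peaks of these libraries did. In Azucena it was 24.9% and 24.6% in the window, against 16.1% and 16.8% in the rest, with 18.8% and 19% over all peaks. The windows were higher by 8.29 percentage points, in 4 of 4 libraries (exact p = 0.125, adjusted p = 0.214). The difference was larger on chromosome 10: 21.9% and 22.5% in IR64 windows, against 12.6% and 12.6% in the rest, and 32.0% and 30.6% in Azucena windows, against 19.2% and 18.8% in the rest, a mean of 11 points (4 of 4, exact p = 0.125). Among peaks of fold 4 or more it was 3.04 points on chromosome 10 and 8.22 on chromosome 4. H3K27me3 peaks covered 1.16% to 2.49% of the chromosome 4 window, against 2.55% to 6.09% of the rest, in the 4 libraries. On chromosome 10 they covered 2.15% to 4.23% of the window, against 2.12% to 4.51% of the rest. The overlap expected from such coverage was not computed.

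Seen from the H3K27me3 side, 32.6% and 46.3% of chromosome 4 window peaks overlapped H3K4me3 in IR64, against 32.3% and 38.2% in the rest, where 35.4% and 42.2% of all peaks of these libraries did. In Azucena it was 38% and 40.0% in the window, against 29.1% and 29.3% in the rest, with 32% and 32.3% over all peaks. The mean difference was 6.99 points (higher in 4 of 4, exact p = 0.125), with 9.21 points without the deep IR64 library. It was 14.2 points among peaks of fold 4 or more and 3.71 points against the other 10 chromosomes (exact p = 0.125 and 0.25). On chromosome 10 it was 2.24 points (higher in 3 of 4, exact p = 0.5, adjusted p = 0.522), with 3.94 points without that library and 0.34 points without its partner (exact p = 1). Against the sparse bins the windows also had the higher shares: by 2.39 points on chromosome 4 and 7.57 on chromosome 10 for H3K4me3, and by 4.79 and 6.70 points for H3K27me3, in 4 of 4 libraries each (exact p = 0.125). The selection of these bins for few H3K4me3 peaks can itself lower the H3K27me3 share there. The chromosome 10 windows were not matched to the bins in H3K4me3 density. What part this had in the differences was not tested.

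**Figure D4:**
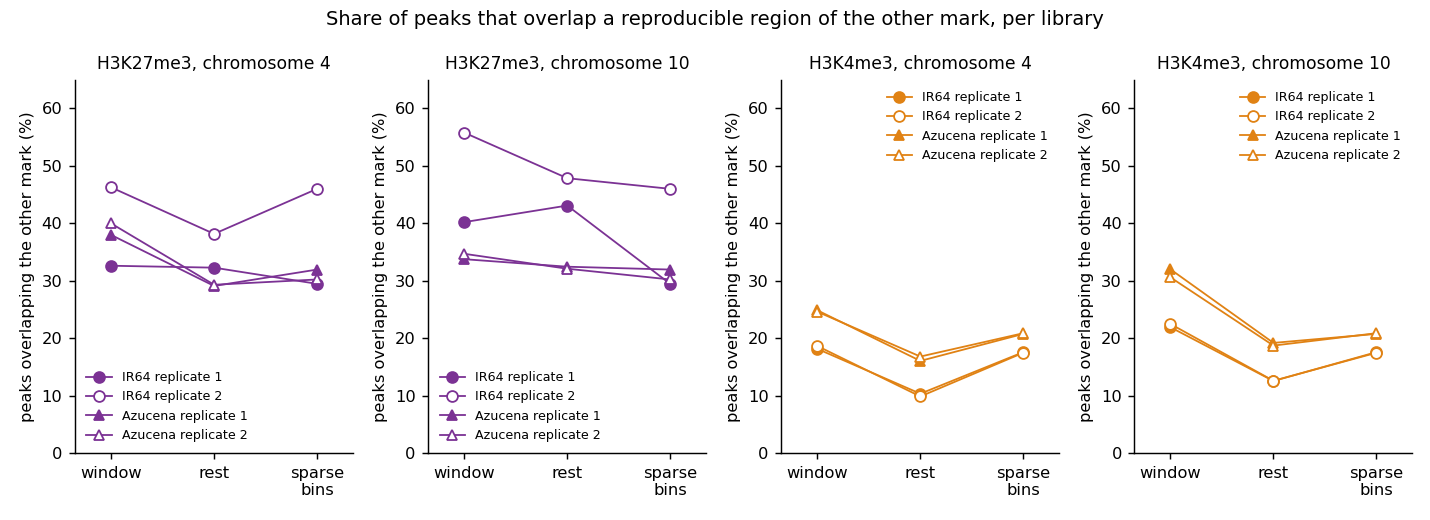
Percentage of peaks that overlap a reproducible region of the other mark, in the window, in the rest of the chromosome and in the H3K4me3-sparse bins of the other 10 chromosomes, with 1 line per library. For H3K4me3 the window lies above both in all libraries, by 8.29 points over the rest on chromosome 4 and 11 points on chromosome 10, and for H3K27me3 the deep IR64 library is below the rest on chromosome 10.

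Sorting the reproducible regions into classes showed which kind was missing from the windows. Regions with H3K4me3 alone were the most depleted. On chromosome 4 there were 27.8 per Mb in the IR64 window, against 97.0 in the rest (0.287 times), and 26.4 per Mb in the Azucena window, against 82.7 in the rest (0.320 times). Regions with H3K27me3 alone stood at 0.376 times the rest in IR64 (6.33 per Mb, against 16.8) and 0.340 times in Azucena (12.5 per Mb, against 36.7). H3K27me3 regions that also carried H3K4me3 were the least depleted there, at 6.75 per Mb in the IR64 window, against 10.9 in the rest (0.617 times), and 9.0 per Mb in the Azucena window, against 16.1 in the rest (0.560 times). Each class has 1 value per cultivar, since both replicates define it, and was not tested.

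Regions with both marks were, on chromosome 10, about as dense in the window as in the rest. They numbered 13 per Mb in the IR64 window, against 12.3 in the rest, and 14 per Mb in the Azucena window, against 15.3 in the rest. H3K4me3 alone was again depleted, at 0.564 times the rest in IR64 (43.4 per Mb, against 76.9) and 0.486 times in Azucena (32.0 per Mb, against 65.9). H3K27me3 alone stood at 0.863 times and 0.849 times the rest in IR64 and Azucena.

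**Figure D5:**
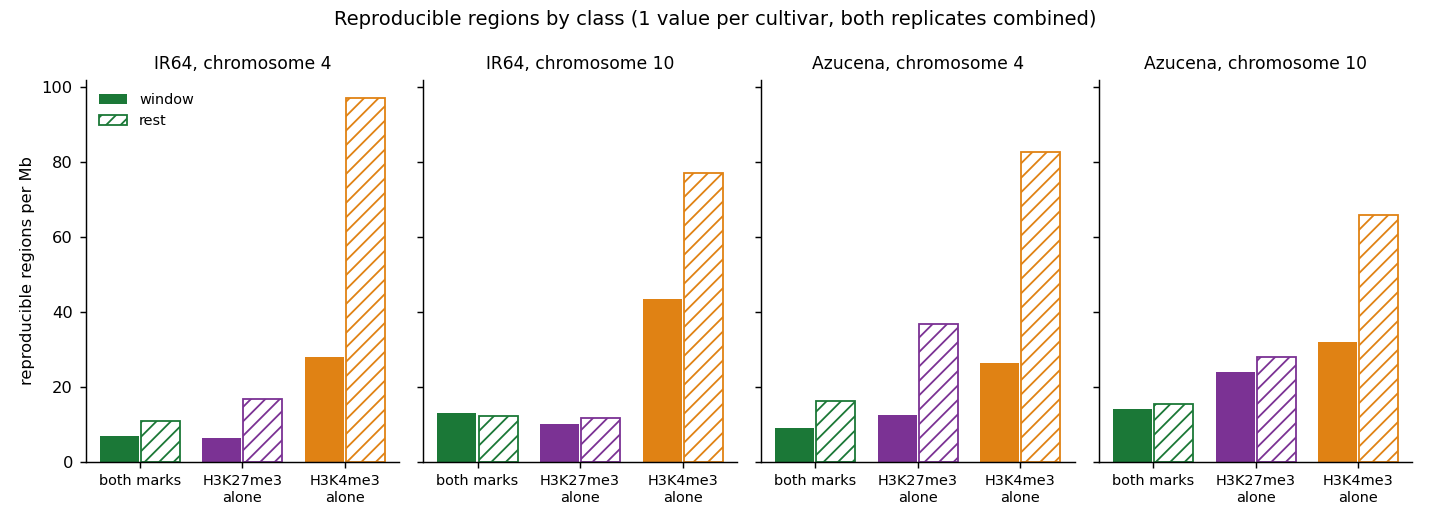
Reproducible regions per Mb by class, as solid bars for the window and hatched bars for the rest, with 1 value per cultivar and no error bar. The H3K4me3-alone class differs most, 27.8 per Mb in the IR64 chromosome 4 window against 97.0 in the rest, while the class with both marks is nearly level on chromosome 10.

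Regions of H3K27me3 without H3K4me3 also lay farther from the other mark on chromosome 4. The median distance to the nearest H3K4me3 region was 15130 bp in the IR64 window, against 3708 bp in the rest, and 10902 bp in the Azucena window, against 3975 bp in the rest. Within 1000 bp of H3K4me3 lay 3 of 76 such regions in the IR64 window, against 33 of 263 in the rest, and 11 of 150 in the Azucena window, against 61 of 521 in the rest. The chromosome 10 distances were closer: 6510 bp in the IR64 window, against 5626 bp in the rest, and 7137 bp in the Azucena window, against 5582 bp in the rest. Within 1000 bp lay 6 of 50 such regions in the IR64 chromosome 10 window, against 19 of 148 in the rest. In Azucena it was 8 of 119 in that window, against 39 of 339 in the rest. The share over the whole genome was not computed. Fewer H3K4me3 regions per Mb lengthen such distances by themselves.

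Regions with both marks had the higher H3K27me3 folds and widths in the chromosome 4 windows, as they did genome-wide. In the IR64 window their median H3K27me3 fold was 4.90 and their median width 1139 bp, against 4.36 and 821 bp for H3K27me3 alone. In the Azucena window it was 4.85 and 1344.5 bp, against 3.82 and 893 bp.

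Peak widths differed little between window and rest on chromosome 4. The median H3K4me3 width was 1.00 times that of the rest (higher in 2 of 4 libraries, exact p = 1). In IR64 it averaged 844 ± 19.8 bp in the window and 812 ± 28.3 bp in the rest, and in Azucena 793 ± 18.4 bp in the window and 820 ± 2.83 bp in the rest (SD, n = 2 each). The median H3K27me3 width was 0.932 times that of the rest (lower in 3 of 4, exact p = 0.5). Window peaks of chromosome 10 were wider for both marks, 1.14 times for H3K27me3 and 1.07 times for H3K4me3, higher in 4 of 4 libraries for each (exact p = 0.125). Azucena H3K27me3 peaks there averaged 835 ± 8.49 bp in the window and 709 ± 20.9 bp in the rest (SD, n = 2).

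Peaks over 2000 bp were few. Of the Azucena H3K27me3 peaks of the chromosome 10 window, 7.21% and 6.02% were that wide, against 4.66% and 3.94% in the rest, where 5.82% and 5.11% of all peaks of these libraries were. In IR64 it was 1.15% and 2.17% in the window, against 1.35% and 0.532% in the rest, with 1.56% and 1.02% over all peaks. The mean difference was 1.52 points (higher in 3 of 4, exact p = 0.25). On chromosome 4 the H3K27me3 difference was -0.24 points. H3K4me3 peaks over 2000 bp were rarer in the chromosome 10 window than in the rest, by a mean difference of -0.95 points (lower in 4 of 4, exact p = 0.125), with 4 to 6 such peaks per library in the window, where 3.04% and 2.41% of all H3K4me3 peaks in IR64 and 2.19% and 2.35% in Azucena were that wide. With the window trimmed to 3 to 6 Mb the difference was -0.086 points (exact p = 1).

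Most window peaks were found again in the other replicate. On chromosome 4 between 87.7% and 92.1% of H3K4me3 window peaks were, against 87.0% to 91.3% in the rest, where 87.3% and 91% of all peaks in IR64 and 91.9% and 89.3% in Azucena were. In Azucena 86.7% and 86.6% of H3K27me3 window peaks were shared, against 87.4% and 87.8% in the rest, with 87.5% and 87.4% over all peaks. The exception was the deep IR64 H3K27me3 library, which shared 54.6% of its chromosome 4 window peaks (159 of 291), against 71.9% in the rest and 66.1% over all its peaks. The low share was not particular to the window, since this library shared 51.5% of its peaks in the sparse bins (685 of 1329). Its partner shared 85.1% of its window peaks, against 84.1% in the rest and 83.7% overall. The unshared peaks were spread over the window, but their share was highest in its middle: in the bins beginning at 8, 9 and 10 Mb the deep library had 13, 18 and 20 H3K27me3 peaks, while its partner had 5, 2 and 4. Of those 51 peaks 11 were shared (21.6%) and 40 were not, against 148 of 240 shared (61.7%) and 92 unshared elsewhere in the window. The 132 unshared peaks of the window had a median width of 388.5 bp, a summit coverage of 16 reads and a local background of 2.40 reads, which is the lowest of that library. The shared ones had 864 bp, 27 reads and 4.15 reads. The deep library had 47.91 units of uniquely aligned reads, against 9 in its partner, and 12629 peaks, against 10134. Genome-wide, its median summit coverage was 24 reads, against 23 in its partner, and its lowest background 2.40 reads, against 1.85. The part of sequencing depth in the unshared peaks was not tested.

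The strongest window regions are named by position, 1-based, in the coordinates of each cultivar's lists, whose builds are not given in the sources used here, so no gene could be assigned to them. In the IR64 chromosome 4 window the strongest H3K27me3 region was at 10944397 to 10945307, with a mean fold of 17.5 ± 0.272 (SD, n = 2), rank 12 of 8219 in the genome. It overlapped an H3K4me3 region at 10944398 to 10944931 of fold 8.68 ± 0.261, itself rank 31 of 29541. The next ones, at 11032931 to 11033649 (12.1 ± 2.94) and at 4933641 to 4934606 (11.4 ± 0.252), also carried H3K4me3. The strongest IR64 H3K4me3 region of that window, at 8105861 to 8107414, had a fold of 8.99 ± 0.0939 (rank 27 of 29541) and overlapped H3K27me3 of fold 9.07. The third, at 4933659 to 4934587 (8.51 ± 0.540), lay on the H3K27me3 region just named. All of these IR64 regions bore both marks, and so did the widest of each mark, 2484 bp at 11386267 to 11388750 for H3K27me3 and 3028 bp at 3884174 to 3887201 for H3K4me3. Over all reproducible regions of that window, 51.6% of H3K27me3 and 19.3% of H3K4me3 regions overlapped the other mark.

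In the Azucena chromosome 4 window the strongest H3K27me3 regions lay at 10991682 to 10992191 (fold 11.4 ± 0.0175, rank 25 of 14872), 9637759 to 9638697 (10.2 ± 1.6) and 10030136 to 10031575 (8.76 ± 0.498), and all 3 overlapped H3K4me3. The strongest H3K4me3 regions, at 8098636 to 8099978 (8.94 ± 0.253, rank 22 of 27223), 6962745 to 6963738 (8.02 ± 0.896) and 13432606 to 13434094 (7.84 ± 0.617), overlapped no H3K27me3 region. The widest were 3230 bp for H3K27me3, at 12287654 to 12290883, and 2969 bp for H3K4me3, at 3513400 to 3516368, both with the other mark. Here 41.9% of all H3K27me3 and 25.2% of all H3K4me3 regions of the window overlapped the other mark.

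On chromosome 10 the strongest H3K27me3 region of the IR64 window was at 4638272 to 4639221 (fold 10.7 ± 3.96, rank 66 of 8219), with H3K4me3 of fold 6.10, and its replicates gave 13.5 and 7.88. It was followed by 3404272 to 3404828 (7.68 ± 0.781, no H3K4me3) and 3036252 to 3037883 (7.36 ± 0.988, with H3K4me3). In Azucena the order was 2416454 to 2417187 (9.42 ± 1.56, rank 55 of 14872), 3653345 to 3654393 (8.40 ± 0.236) and 4036894 to 4038173 (8.17 ± 1.05), and the middle one of these overlapped H3K4me3. Of all H3K4me3 regions of the chromosome 10 window, 77.0% in IR64 and 69.3% in Azucena lacked H3K27me3. None of the 3 strongest H3K4me3 regions of either cultivar overlapped H3K27me3 there. They were 4299817 to 4301138 (7.30 ± 0.0755), 6667704 to 6668945 (7.25 ± 1.13) and 2045541 to 2046328 (7.16 ± 1.68) in IR64, and 6263251 to 6264418 (8.22 ± 0.279), 6813465 to 6814428 (7.93 ± 0.589) and 2642179 to 2643452 (6.90 ± 1.24) in Azucena. The widest regions of the chromosome 10 window were at 3448934 to 3452338 (3405 bp, H3K4me3, with H3K27me3) and 6119993 to 6122450 (2458 bp, H3K27me3) in IR64. In Azucena they were at 4196601 to 4199755 (3155 bp, H3K27me3) and 6854275 to 6857198 (2924 bp, H3K4me3), each with 1 mark.

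The longest stretches without a called peak in either replicate were longer in the chromosome 4 windows than in the rest. Fewer peaks per Mb lengthen such gaps by themselves, and gaps of other sparse stretches were not measured. In IR64 no H3K4me3 peak was called between 9882157 and 10412779, over 531 kb, whereas the longest such gap of the rest was 106 kb. For H3K27me3 the longest gap was 396 kb in the window, at 10413448 to 10809323, and 205 kb in the rest. In Azucena the longest H3K27me3 gap was 465 kb, at 8642854 to 9107658, against 214 kb in the rest, and the longest H3K4me3 gap was 235 kb, at 2278766 to 2513393, against 134 kb in the rest. On chromosome 10 the H3K4me3 gaps were 116 kb in the IR64 window (5308097 to 5424031), against 144 kb in the rest, and 218 kb in the Azucena window (3435369 to 3653770), against 180 kb in the rest. The H3K27me3 gaps there were 297 kb in IR64 (5297930 to 5595380), against 251 kb in the rest, and 211 kb in Azucena (5507922 to 5718698), against 185 kb in the rest. A called gap can hold sequence that short reads do not align to uniquely, which the lists do not show.

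The depletion was set side by side between the cultivars. The ratio of window to rest in IR64 was 1.30 times that in Azucena for H3K27me3 on chromosome 4 and 0.895 times for H3K4me3. The H3K27me3 difference was 0.38 on the log2 scale, with 0.18 without the deep library and 0.58 without its partner. On chromosome 10 it was 1.15 times for H3K27me3 and 1.10 times for H3K4me3. Each had an exact p of 0.333, the smallest that 2 against 2 libraries allow, so no difference between the cultivars could have passed. What part the lower summit coverage of the IR64 H3K27me3 libraries had in the H3K27me3 values and mark ratios of that cultivar was not tested.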

How the data were processed

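The authors deposited 1 peak list per library, holding a score and, for each summit, a fold enrichment (a ratio), a −log10 q and a −log10 p, per the labels and the narrowPeak layout. The lowest −log10 q lay between 2.01 and 2.03. MACS2 2.1.0, Bismark 0.22.3, Bowtie2 and fastp 0.20.1 are named in the submitters' processing notes, without roles. The sources used here give no genome build, control library or duplicate handling. A second deposited table of the authors gave clean and uniquely aligned reads and peak counts per library, in values that were read as given, and its peak counts equalled the list lengths. The score was not used.

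Peaks were assigned by their start, and 1 peak crossed a window edge. Density is peaks per Mb, and the rest ends at the last base called in the cultivar. Medians and shares were computed per library and compared as window minus rest, on the log2 scale for densities, widths and folds. Tests were two-sided exact sign-flip permutations over libraries, Benjamini-Hochberg adjusted over 24 comparisons, with the 2 pooled densities adjusted together. Marks and cultivars were compared by relabelling. Summit coverage and background were recovered by solving fold and p jointly under a Poisson model, with 1 as pseudocount above and below the line. Coverage came out whole, within 0.05, in 100% of peaks of each library. Background within 2% of a library's lowest was called lowest. These functions were tested on simulated data. Named regions are the 3 of highest mean fold and the widest per mark, cultivar and window, the longest gaps, and the fullest and emptiest bins. The windows, measures and regions were chosen with earlier results of these data known. Cultivars were kept in separate coordinates, and no sequence or gene annotation was used. Alternatives were thresholds on −log10 q (5) and fold (4), merging within 500 bp, inner windows, other comparison stretches, overlap rules, left-out replicates and a replicate block. The sparse bins, the restriction to peaks of both replicates and the coverage threshold were added after the data were seen. Python 3.11.15, NumPy 2.4.6, pandas 2.3.3, SciPy 1.17.1 and Matplotlib 3.10.9 were used.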

Additional observations from a re-analysis of the deposited data

Results flagged for a closer look

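Median H3K4me3 width on chromosome 4 moved in opposite directions in the cultivars. On the log2 scale, window minus rest was 0.056 in IR64 and -0.048 in Azucena, with both libraries of a cultivar on the same side. The difference between the cultivars was not tested.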

How the results depend on the processing

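Of 436 alternative values for 32 results, 404 kept their direction, as did 142 of the 144 that left out 1 library. Values here are window minus rest, as log2 ratios or percentage points. With fold 4 or more, pooled density on chromosome 10 was -0.045 (exact p = 0.242), the mark contrast on chromosome 4 -0.0086, the cultivar contrast 0.12 for H3K4me3 on chromosome 4 and -0.10 for H3K27me3 on chromosome 10. Pooled density on chromosome 10 was also weaker against all of the chromosome outside the window (-0.17, exact p = 0.141) and against the other 10 chromosomes (-0.30, exact p = 0.0703), where H3K27me3 density turned to 0.084 and 0.0046. H3K4me3 width on chromosome 4 (0.0038 as reported) turned to -0.026 (−log10 q of at least 5), -0.044 (fold), -0.058 (merging), -0.0046 (outside the window), -0.0065 (other chromosomes), -0.016 (sparse bins) and -0.013 (both replicates), and ranged over -0.018 to 0.030 with 1 library left out. H3K27me3 width on chromosome 4 turned to 0.053 with peaks of both replicates and 0.17 with the coverage threshold. The H3K27me3 share over 2000 bp on chromosome 4 turned to 0.36 (outside the window), 0.47 (other chromosomes), 1.16 (sparse bins) and 1.39 (coverage). Against sparse bins, H3K27me3 density was 0.15 (chromosome 4) and 0.88 (chromosome 10), fold -0.025 and -0.11 for H3K27me3 and -0.054 and -0.052 for H3K4me3, and replicate sharing on chromosome 4 0.038 (H3K27me3) and -0.31 (H3K4me3). H3K4me3 sharing turned to -0.37 against the other chromosomes, and to -4.64 and -0.60 (chromosomes 4 and 10) with the coverage threshold, which also turned H3K27me3 fold on chromosome 10 to -0.038. The causes were not tested, and 17 results reversed nowhere.

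With the replicate block the mark contrast was 0.49 on chromosome 4 and 0.64 on chromosome 10 (exact p = 0.125, the smallest for 4 pairs). In the cultivar contrasts the block gave p = 0.5 by exact permutation of 2 pairs, also the smallest. Same-numbered libraries of the 2 marks deviated to the same side in 2 of 4 cases, mostly by small amounts, which leaves undecided whether a number marks a shared origin.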
